A study of Mus musculus with 39 samples.

Results

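Gene expression in intestinal tumours of ADAM17-deficient mice was compared with that in tumours of mice with wild-type Adam17. The tumours with the mutation were the 17 libraries whose labels give the genotype Apc Min/+ ::ADAM17 ex/ex and the tissue intestinal tumour, and the tumours without it were the 12 libraries labelled Apc Min/+ of the same tissue, so that 29 of the 39 libraries of the series entered the comparison. Both groups carried the Min allele of Apc, a truncating germline mutation after which intestinal adenomas form, and all mice were C57BL/6. The ex allele is a germline hypomorphic allele that is known to leave little ADAM17 protein in any tissue, so neither an epithelial nor an immune cell was spared. The other 10 libraries, 6 from ex/ex and 4 from wild-type non-tumour tissue, were used to estimate the spread and to test whether a difference between the genotypes depended on the tissue. No animal, age, sex, tumour size or site along the intestine is given in the labels, so several tumours may come from the same mouse, and a p-value speaks only of how far these libraries varied.

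ADAM17 is a membrane-bound metalloprotease that cuts the outer part off other membrane proteins. It releases the EGF receptor ligands amphiregulin, epiregulin, TGF-alpha and HB-EGF, the cytokine TNF and its receptors, and the IL-6 receptor, whose soluble form carries IL-6 to cells that have only the shared receptor gp130 (IL-6 trans-signalling). In the intestine, EGF receptor signalling through RAS and ERK supports crypt growth, repair and the growth of Apc-mutant adenomas, and gp130 signalling through STAT3 supports epithelial survival. The series title names both routes.

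The 17 ex/ex tumour libraries held 7816667 to 10612100 gene counts and the 12 wild-type ones 6879585 to 11073097. Mitochondrial genes took 1.87 to 4.95% of the counts in ex/ex tumours and 1.83 to 3.58% in wild-type tumours, and Gm42418, a locus overlapping ribosomal RNA, took 0.113 to 0.267% and 0.09 to 3.52%. Epcam, the pan-epithelial surface marker, had 465, 1526 and 3979 CPM, the counts scaled to a common library size, in ex/ex tumours, against 83.3, 2663 and 2835 CPM in wild-type tumours, as the lowest, the median and the highest library. Levels are given in this order throughout. The following properties of the libraries touch results below. Ex/ex tumours 1, 2 and 3 held 33.9 to 37.4 CPM of the Y-linked Ddx3y and 0.577 to 0.854 CPM of Xist, whereas the other 14 ex/ex tumours held 370 to 710 CPM of Xist and no other tumour exceeded 0.3 CPM of Ddx3y, so that by these genes the male libraries were all ex/ex. Wild-type tumour 4 had the lowest mean levels of the enterocyte and goblet cell lists of all 29 libraries. The level of lymphoid genes, which touches most results, is described first.

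The 14 genes of the B cell list had a mean level of 0.843, 7.62 and 8.36 log2 CPM in ex/ex tumours, against 0.207, 1.10 and 8.16 log2 CPM in wild-type tumours. Of the ex/ex tumours, 15 lay between 6.93 and 8.36, while number 1 had 5.02 and number 2 had 0.843. Among wild-type tumours, numbers 1, 4 and 7 had 7.89, 8.16 and 7.26, number 2 had 3.71 and the other 8 had 0.207 to 1.41. The groups overlapped, and both held libraries rich and poor in B cell transcripts, in unequal shares. In bulk RNA, more cells of a type and more RNA per cell cannot be told apart. For each gene list below, the result of a second fit that held the B cell list mean of each library as a covariate (the B cell covariate) is given as well. A comparison at equal B cell level rests, for wild type, on tumours 1, 4 and 7 at the high levels. At the low levels it rests, for ex/ex, on tumour 2.

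**Figure D1:**
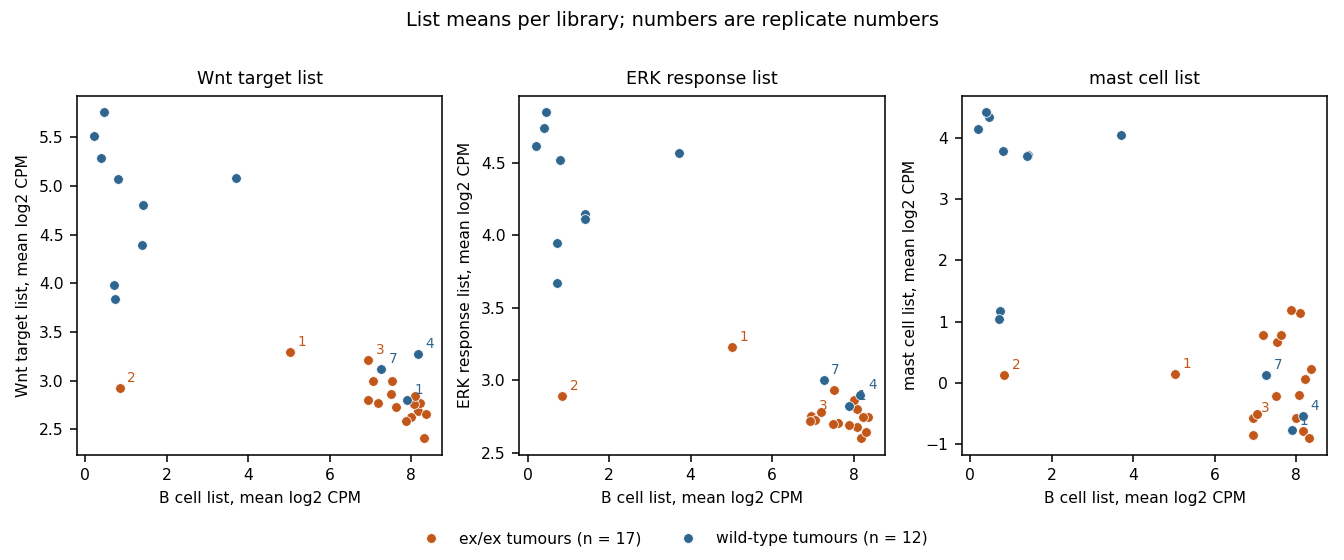
Mean log2 CPM of the Wnt target, ERK response and mast cell lists (vertical axes) against the mean log2 CPM of the B cell list (horizontal axis) in 17 ex/ex tumours (orange) and 12 wild-type tumours (blue). Numbers mark ex/ex tumours 1 to 3 and wild-type tumours 1, 4 and 7. In the Wnt and ERK panels the wild-type tumours with low B cell levels lay at the top left, and ex/ex tumour 2, with a B cell level of 0.843, kept a Wnt target level of 2.92.

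Of 16327 genes tested, 5429 passed the threshold of 0.05 on the adjusted p (edgeR's quasi-likelihood test, Benjamini-Hochberg over all genes), which is 33.3% of them. In ex/ex tumours 2488 genes (15.2%) were higher and 2941 (18%) were lower, with a median log2 fold change over all genes of -0.014. The counts of the lists are to be read against these shares, and values in the form a ± b are log2 fold changes of ex/ex over wild-type tumours with their SE. With the B cell covariate 3592 genes were called, 2146 higher and 1446 lower, so the share of higher calls was 59.7% against 45.8% without it, and 900 of the 5429 calls were kept. Another fit, with the means of the proximal and distal intestinal lists as covariates (the position covariates), called 3925 genes and kept 3324 of the calls. limma-voom with quality weights called 11850 genes, 450 list members among them. Without wild-type tumour 4 the count was 7464, and without wild-type tumour 8 it was 4396. Without the 3 male ex/ex tumours it was 8301, which included 5295 of the 5429 calls.

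**Figure D2:**
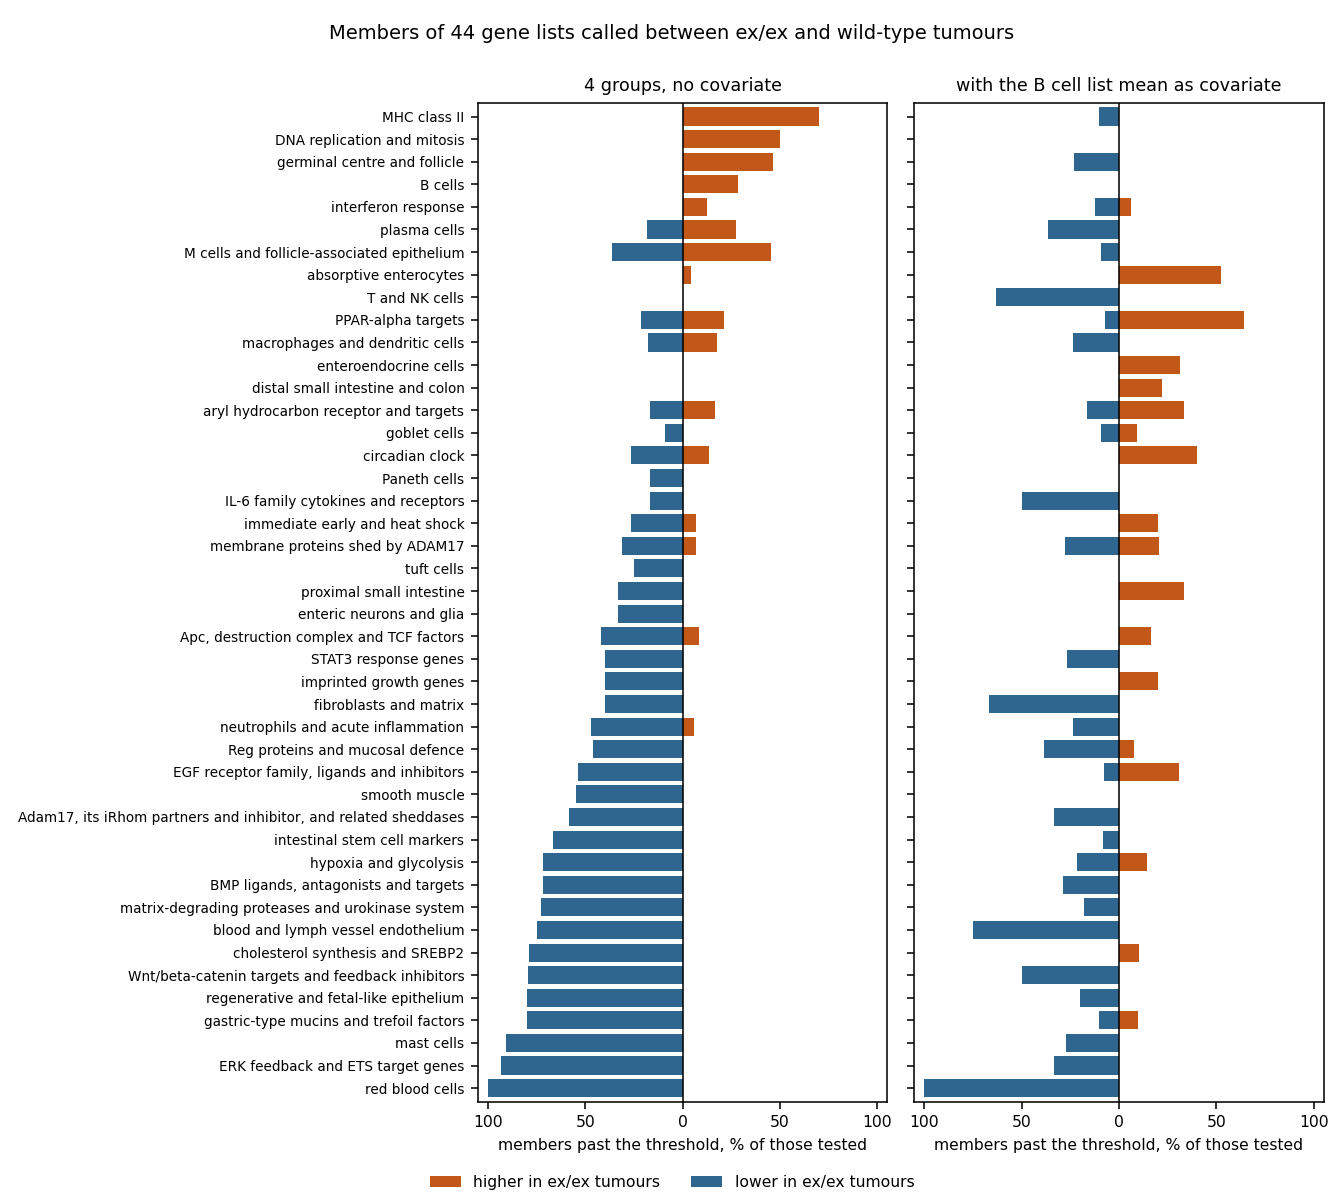
Percent of the tested members of 44 gene lists that were higher (orange, to the right) or lower (blue, to the left) in ex/ex than in wild-type tumours at an adjusted p below 0.05. The left panel shows the fit of 4 groups and the right panel the same fit with the B cell list mean as a covariate. All red blood cell genes tested were lower in both fits, whereas members of the MHC class II, germinal centre and replication lists were called higher in the left panel and none in the right.

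Adam17 (chr12:21323509-21373632, minus strand, GRCm38) checked the genotype labels. It had 14.5, 22.9 and 33.5 CPM in ex/ex tumours, against 38.5, 50.7 and 86 CPM in wild-type tumours, a log2 fold change of -1.21 ± 0.14, adjusted p = 7.25e-08. Every ex/ex tumour lay below every wild-type tumour, and transcript was present in all of them. The fit with the B cell covariate gave -1.66, adjusted p = 7.33e-11. The lowest ex/ex values, 14.5, 14.8 and 15.4 CPM, were those of tumours 1, 2 and 3. Of the 12 genes of the ADAM17 list (the protease, its partners and its relatives), 7 were lower and 0 higher, and 3 of these calls were kept with the B cell covariate. The lower count was 3 without a filter on low counts and 4 with the position covariates. The iRhom proteins and FRMD8 carry ADAM17 to the cell surface. Of these, Rhbdf1 was lower (log2 fold change -0.46 ± 0.14, adjusted p = 0.0144), while Rhbdf2 (0.12 ± 0.09, adjusted p = 0.287) and Frmd8 (-0.09 ± 0.16, adjusted p = 0.689) missed the threshold. Timp3, the tissue inhibitor of ADAM17, had 10.6, 21 and 42.5 CPM in ex/ex tumours, against 19.9, 47.3 and 68.5 CPM in wild-type tumours (-1.07 ± 0.23, adjusted p = 0.000467). The related sheddases Adam9 and Adam15 missed the threshold, with log2 fold changes of -0.15 ± 0.14 and -0.13 ± 0.11, and Adam8, a protease of myeloid cells, was lower at -1.15 ± 0.26, adjusted p = 0.000937.

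Among 29 tested genes for membrane proteins that ADAM17 sheds, 2 were higher and 9 lower. The higher count was 0 without wild-type tumour 8 and 6 without wild-type tumour 1, and without the 3 male ex/ex tumours 5 were higher and 15 lower. The B cell covariate kept 2 of the 11 calls, and 6 genes of the list were higher and 8 lower. Nectin4, an adhesion molecule of epithelia and their tumours, had 0.234, 0.77 and 3.66 CPM in ex/ex tumours, against 0.954, 8.34 and 18.3 CPM in wild-type tumours (-3.33 ± 0.41, adjusted p = 1.13e-07). Ptk7, a Wnt co-receptor, showed -2.14 ± 0.27, adjusted p = 1.67e-07, and these were the 2 calls kept with the B cell covariate (-1.57, adjusted p = 0.0191 and -1.19, adjusted p = 0.0124). The stem cell factor gene Kitl (-1.33 ± 0.23, adjusted p = 2.86e-05), the Notch ligand Jag1 (-0.95 ± 0.17, adjusted p = 7.12e-05) and the adhesion molecule Alcam (-0.99 ± 0.20, adjusted p = 0.000237) were lower too. Their calls ended with the B cell covariate, with Kitl at -0.25, adjusted p = 0.372, Jag1 at -0.35, adjusted p = 0.122 and Alcam at -0.22, adjusted p = 0.5. Shed proteins of inflammation, the cytokine TNF first among them, gave other values. Tnf had 0.142, 8.13 and 13.2 CPM in ex/ex tumours, against 1.41, 2.31 and 17.5 CPM in wild-type tumours, and missed the threshold (0.76 ± 0.39, adjusted p = 0.128). So did its receptors Tnfrsf1a (-0.47 ± 0.22, adjusted p = 0.0964) and Tnfrsf1b (0.16 ± 0.21, adjusted p = 0.581) and the IL-6 receptor Il6ra (0.50 ± 0.29, adjusted p = 0.171). With the B cell covariate Tnf (-0.88, adjusted p = 0.0261), Tnfrsf1b (-0.78, adjusted p = 0.00137) and Il6ra (-0.64, adjusted p = 0.0196) were lower. Tnfrsf1a missed the threshold in that fit too (0.32, adjusted p = 0.292).

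The EGF receptor family was lower in ex/ex tumours as far as it was called: 7 of 13 tested members were lower and 0 higher, with a median log2 fold change of -0.78. Areg, the gene of amphiregulin, had 1.13, 3.93 and 7.8 CPM in ex/ex tumours, against 0.505, 18.3 and 33.1 CPM in wild-type tumours (-2.10 ± 0.36, adjusted p = 2.86e-05). Btc, the gene of betacellulin, had 1.65, 2.84 and 9.24 CPM in ex/ex tumours, against 1.52, 13.4 and 35.5 CPM in wild-type tumours (-2.02 ± 0.34, adjusted p = 1.78e-05). The ranges of the groups overlapped for both, since the lowest wild-type library lay below the ex/ex median. Ereg (epiregulin) showed -1.21 ± 0.35, adjusted p = 0.00749, and Nrg1, the ligand of ERBB3 and ERBB4, showed -1.45 ± 0.25, adjusted p = 2.85e-05. Hbegf (-0.66 ± 0.35, adjusted p = 0.142) and Egf (0.47 ± 0.24, adjusted p = 0.123) missed the threshold. Of the receptors, Egfr had 10.2, 19.6 and 58.8 CPM in ex/ex tumours, against 8.29, 66.8 and 98.7 CPM in wild-type tumours (-1.41 ± 0.27, adjusted p = 9.8e-05), whereas Erbb2 (-0.18 ± 0.29, adjusted p = 0.66) and Erbb3 (0.04 ± 0.34, adjusted p = 0.943) missed the threshold. Lrig1, a stem cell protein that takes EGF receptors off the membrane, was lower (-0.68 ± 0.15, adjusted p = 0.000641). Only the call of Nrg1 was kept with the B cell covariate (-0.97, adjusted p = 0.0395), and 4 members were called higher. Among the higher ones were Hbegf (1.26, adjusted p = 0.0235), Erbb2 (1.0, adjusted p = 0.0236) and Erbb3 (1.25, adjusted p = 0.0136). With the position covariates 5 were lower and 2 higher. In the fit with the B cell covariate Egfr was at -0.05, adjusted p = 0.908 and Areg at -0.44, adjusted p = 0.517.

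The response genes of the ERK pathway moved together: 14 of 15 tested were lower and 0 higher, with a median log2 fold change of -0.97. Phlda1, an epithelial gene induced by ERK, had 3.33, 5.5 and 13.2 CPM in ex/ex tumours, against 6.36, 47.5 and 117 CPM in wild-type tumours (-3.16 ± 0.32, adjusted p = 3.12e-09). The ETS factor Etv5 had 4.7, 8.1 and 11.8 CPM in ex/ex tumours, against 9.27, 36.1 and 103 CPM in wild-type tumours (-2.39 ± 0.28, adjusted p = 6.41e-08). In 9 of the 12 wild-type tumours the list mean lay above all 17 ex/ex tumours (3.67 to 4.85 log2 CPM against at most 3.23), and wild-type tumours 1, 4 and 7 lay among the ex/ex tumours at 2.82, 2.90 and 3.01. Etv4 (-2.67 ± 0.40, adjusted p = 2.93e-06), Fosl1, a subunit of AP-1 (-5.24 ± 0.64, adjusted p = 1.13e-07), Ier3 (-2.23 ± 0.27, adjusted p = 1.15e-07) and the feedback inhibitors Spry4 (-1.70 ± 0.24, adjusted p = 1.48e-06) and Spry2 (-0.97 ± 0.17, adjusted p = 4.6e-05) were lower as well. Ccnd1, the gene of cyclin D1, was lower by less (-0.88 ± 0.15, adjusted p = 3e-05), and Dusp5 missed the threshold (0.06 ± 0.19, adjusted p = 0.841). The B cell covariate left 5 calls: Phlda1 (-1.32, adjusted p = 0.00998), Etv5 (-1.24, adjusted p = 0.0257), Fosl1 (-2.59, adjusted p = 0.0191), Ccnd1 (-0.77, adjusted p = 0.0159) and the phosphatase Dusp4 (-1.07, adjusted p = 0.0355). In the fit of tumours alone 13 of 14 tested genes of the list were lower, and Fosl1 did not pass the filter on low counts.

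**Figure D3:**
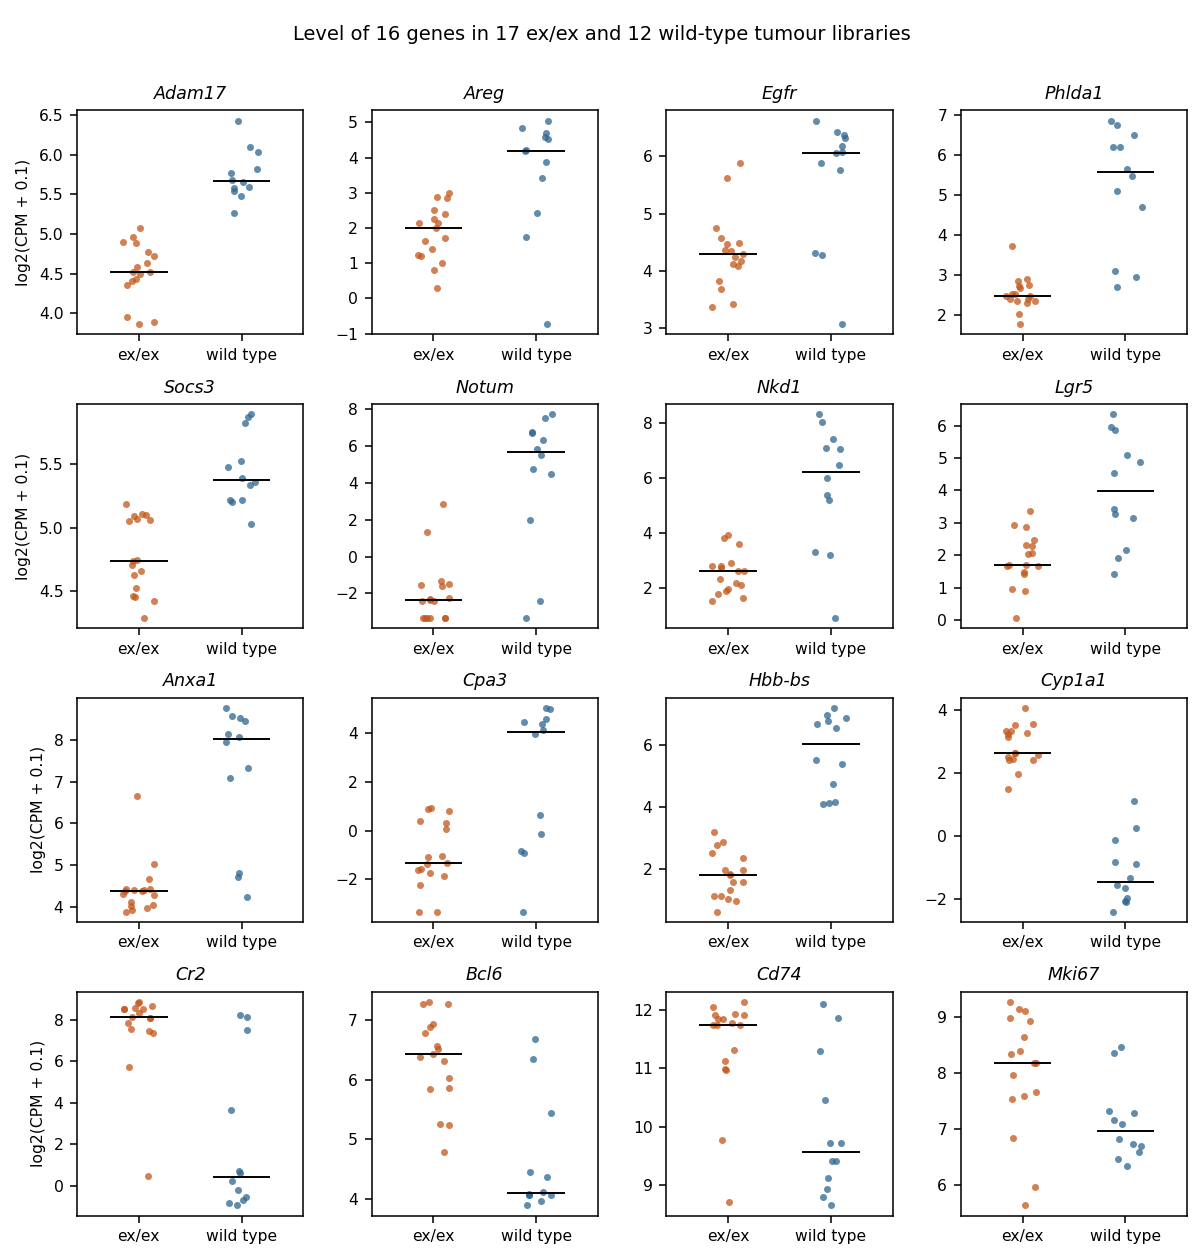
Level of 16 genes in each tumour library, as log2 of CPM plus a small constant on the vertical axis, with ex/ex tumours (orange, n = 17) to the left of wild-type tumours (blue, n = 12). Black bars are group medians. Adam17 and Hbb-bs separate the groups completely, as does Cyp1a1 in the other direction, whereas 3 wild-type libraries lie within the ex/ex range of Phlda1 and of Anxa1.

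Of the IL-6 family, 2 of 12 tested genes were lower and 0 higher (4 higher without wild-type tumour 4, and 6 with limma-voom). The share of lower genes lay near the 18% of all genes tested. Il11, a cytokine that signals through gp130, had 0.0871, 0.239 and 0.459 CPM in ex/ex tumours, against 0.173, 2.33 and 16.6 CPM in wild-type tumours (-4.43 ± 0.55, adjusted p = 1.66e-07), and Lif showed -0.72 ± 0.18, adjusted p = 0.00213. Il6 itself had 0, 0.344 and 0.522 CPM in ex/ex tumours, against 0, 0.288 and 1.86 CPM in wild-type tumours, and missed the threshold (-1.07 ± 0.45, adjusted p = 0.0633). The shared receptor Il6st, which encodes gp130, was at 0.16 ± 0.18, adjusted p = 0.517. With the B cell covariate neither lower call was kept, and 6 other members of the list were lower, among them Il6st (-0.55, adjusted p = 0.00902) and Osmr (-1.09, adjusted p = 0.0017). In the fit of tumours alone 1 of 10 tested genes of the list was lower. Il11 and Il6 did not pass the filter on low counts in that fit.

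Of 15 genes listed as STAT3 response genes, 6 were lower and 0 higher. Whether STAT3 or another STAT protein drives each of them was not tested. Socs3, the feedback inhibitor of gp130 signalling, had 19.4, 26.6 and 36.3 CPM in ex/ex tumours, against 32.5, 41.5 and 59.5 CPM in wild-type tumours (-0.67 ± 0.10, adjusted p = 5.26e-06). Only wild-type tumour 2 lay within the ex/ex range, and the call was kept with the B cell covariate (-0.89, adjusted p = 6.44e-06). In non-tumour tissue the log2 fold change of Socs3, ex/ex against wild type, was -1.72 (adjusted p = 1.06e-07), and the tumour effect minus the non-tumour effect was 1.06 (adjusted p = 0.0243, and 0.0531 to 0.0635 without single non-tumour libraries). Lcn2, the iron-binding lipocalin of inflamed epithelium, had 0.261, 0.686 and 1.11 CPM in ex/ex tumours, against 0.909, 11.2 and 136 CPM in wild-type tumours (-5.92 ± 0.63, adjusted p = 1.04e-08). Timp1 (-3.23 ± 0.44, adjusted p = 6.61e-07), the fucosyltransferase Fut2 (-3.38 ± 0.57, adjusted p = 1.88e-05) and Cish (-0.73 ± 0.14, adjusted p = 0.000119) were lower, while Stat3 (-0.01 ± 0.06, adjusted p = 0.918), Pim1 (0.24 ± 0.12, adjusted p = 0.119) and Bcl3 (-0.33 ± 0.15, adjusted p = 0.0736) missed the threshold. Beside Socs3, the calls of Lcn2 (-2.99, adjusted p = 0.00859) and Timp1 (-1.64, adjusted p = 0.0376) were kept with the B cell covariate. The letters TTCNNNGAA, to which STAT proteins bind, stood in the promoters of 3 of the 5 matched genes among these 6 (Cish, Reg3b and Socs3). The share was 9.55% over all 27025 mouse genes with a promoter of the same length (300 bases, 250 before and 50 after the start, RefSeq, GRCm38.p6, both strands). A gene was counted if any of its promoters held the letters, and of 32851 single promoters 8.3% did. The Socs3 promoter (chr11:117969317-117969616, minus strand) is shown as that of a called gene on which the group turns, with the match in capitals.
Socs3: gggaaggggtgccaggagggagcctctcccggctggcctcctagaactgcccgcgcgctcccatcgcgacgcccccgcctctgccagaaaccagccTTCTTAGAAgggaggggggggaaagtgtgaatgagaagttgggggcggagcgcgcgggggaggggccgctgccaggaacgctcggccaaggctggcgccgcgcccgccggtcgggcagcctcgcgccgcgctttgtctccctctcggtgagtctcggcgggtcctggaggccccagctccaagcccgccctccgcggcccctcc

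Of 24 tested targets and feedback inhibitors of the Wnt pathway, which is active in Apc-mutant cells, 19 were lower and 0 higher, with a median log2 fold change of -1.56. The count stayed at 19 whichever single tumour library was left out. Notum, a lipase that inactivates Wnt ligands, had 0, 0.0964 and 7.17 CPM in ex/ex tumours, against 0, 52 and 213 CPM in wild-type tumours (-7.04 ± 0.86, adjusted p = 1.18e-07). Wif1, a secreted Wnt inhibitor, had 0.289, 0.784 and 2.31 CPM in ex/ex tumours, against 1.09, 15.9 and 164 CPM in wild-type tumours (-5.44 ± 0.56, adjusted p = 5.64e-09). The intracellular inhibitor Nkd1 had 2.84, 6.05 and 15.2 CPM in ex/ex tumours, against 1.82, 75.4 and 314 CPM in wild-type tumours (-4.01 ± 0.45, adjusted p = 2.95e-08). For these genes most wild-type tumours stood far above the ex/ex tumours, but the lowest wild-type values lay inside the ex/ex range or, for Nkd1, below it. The transcription factor Prox1 (-3.95 ± 0.42, adjusted p = 1.07e-08), the Wnt antagonist Dkk2 (-2.50 ± 0.28, adjusted p = 2.15e-08), the ephrin receptors Ephb3 (-3.0 ± 0.36, adjusted p = 7.61e-08) and Ephb2 (-1.64 ± 0.22, adjusted p = 5.08e-07) and the ubiquitin ligases Znrf3 (-1.49 ± 0.18, adjusted p = 1.57e-07) and Rnf43 (-1.24 ± 0.25, adjusted p = 0.000228) were lower. Axin2, a widely used readout of the pathway, showed -1.18 ± 0.22, adjusted p = 0.000114. Myc (0.08 ± 0.18, adjusted p = 0.757), Cd44 (-0.66 ± 0.31, adjusted p = 0.097) and Lef1 (0.10 ± 0.35, adjusted p = 0.849) missed the threshold. The list mean was 2.41 to 3.29 log2 CPM in ex/ex tumours, against 2.80 to 5.76 log2 CPM in wild-type tumours, of which numbers 1, 4 and 7 had 2.80, 3.27 and 3.12. Of the 19 calls 10 were kept with the B cell covariate, including Notum (-3.52, adjusted p = 0.00345), Wif1 (-2.68, adjusted p = 0.00704) and Dkk2 (-1.80, adjusted p = 0.00145), whereas Axin2 was at -0.19, adjusted p = 0.639. Without the 3 male ex/ex tumours the count was 19.

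Apc, whose Min allele is shared by both groups, had 77.4, 88.8 and 129.8 CPM in ex/ex tumours, against 62.3, 114 and 133 CPM in wild-type tumours (-0.23 ± 0.09, adjusted p = 0.0447). This call ended when any of 21 of the 29 tumour libraries was left out, with adjusted p values of up to 0.0874. Of the 12 genes of the destruction complex and its TCF partners, 1 was higher and 5 lower, and none of these calls was kept with the B cell covariate, which gave 2 higher. The lower count was 2 without a filter on low counts and 1 with the position covariates.

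Stem cell markers of the crypt base were lower in 8 of 12 cases and higher in 0, with a median log2 fold change of -1.19. Lgr5, the receptor for R-spondins that marks crypt-base stem cells, had 0.954, 3.16 and 10.3 CPM in ex/ex tumours, against 2.6, 16.7 and 81.1 CPM in wild-type tumours (-2.72 ± 0.40, adjusted p = 2.64e-06). Sox9 (-2.39 ± 0.35, adjusted p = 2.51e-06), Ascl2 (-1.74 ± 0.27, adjusted p = 6.72e-06), Smoc2 (-1.89 ± 0.29, adjusted p = 3.86e-06), Msi1 (-1.59 ± 0.23, adjusted p = 2.4e-06) and Tnfrsf19 (-2.55 ± 0.32, adjusted p = 1.47e-07) followed the same direction. Olfm4 (0.12 ± 0.36, adjusted p = 0.833) and Bmi1 (-0.05 ± 0.13, adjusted p = 0.779) missed the threshold. None of the 8 calls was kept with the B cell covariate, in which Lgr5 was at -0.57, adjusted p = 0.405.

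The letters CTTTGA of the TCF/LEF motif stood in the promoters of 2 of the 12 matched genes among the 19 lower Wnt targets, those of Sp5 and Tnfrsf19. Over all 27025 genes with a promoter the share was 18.2%, so this window held the letters at about the common rate. Both are shown because Sp5 (chr2:70474673-70474972, plus strand) and Tnfrsf19 (chr14:61037938-61038237, minus strand) are Wnt-responsive genes called lower, with the matches on either strand in capitals. Sp5, a transcription factor, showed -1.76 ± 0.49, adjusted p = 0.00592, and Tnfrsf19, the receptor TROY, is given with the stem cell genes.
Sp5: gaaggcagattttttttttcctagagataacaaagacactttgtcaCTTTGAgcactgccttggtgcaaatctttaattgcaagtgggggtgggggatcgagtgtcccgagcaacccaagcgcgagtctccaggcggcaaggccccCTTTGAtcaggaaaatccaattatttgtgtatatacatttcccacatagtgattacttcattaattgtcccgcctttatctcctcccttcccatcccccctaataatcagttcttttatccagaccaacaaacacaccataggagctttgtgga
Tnfrsf19: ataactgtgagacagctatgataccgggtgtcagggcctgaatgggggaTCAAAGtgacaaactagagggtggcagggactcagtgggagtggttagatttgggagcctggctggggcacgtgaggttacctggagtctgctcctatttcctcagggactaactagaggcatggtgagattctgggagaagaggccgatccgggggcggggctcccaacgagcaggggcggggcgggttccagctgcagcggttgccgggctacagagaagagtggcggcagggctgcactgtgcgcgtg

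Genes of regenerating and fetal-like epithelium, which crypts switch on after injury, were lower in 12 of 15 cases and higher in 0, with a median log2 fold change of -2.0. Anxa1, the gene of annexin A1, had 14.7, 20.7 and 100.3 CPM in ex/ex tumours, against 18.8, 257.3 and 432 CPM in wild-type tumours (-3.19 ± 0.38, adjusted p = 8.92e-08). The keratinocyte-type gene Sprr1a had 0.50, 2.01 and 17.2 CPM in ex/ex tumours, against 0.202, 71.2 and 132 CPM in wild-type tumours (-4.14 ± 0.57, adjusted p = 8.97e-07). Il33, an alarmin cytokine, had 9.89, 16.5 and 29.5 CPM in ex/ex tumours, against 27.1, 54.2 and 104 CPM in wild-type tumours (-1.74 ± 0.22, adjusted p = 1.66e-07). For Il33 only the highest ex/ex tumour reached the wild-type range. F3, the gene of tissue factor (-3.11 ± 0.33, adjusted p = 1.06e-08), S100a6 (-2.56 ± 0.37, adjusted p = 2.01e-06), Tnfrsf12a (-2.57 ± 0.39, adjusted p = 3.86e-06) and Il1rn, the gene of the IL-1 receptor antagonist (-1.99 ± 0.31, adjusted p = 5.46e-06), were lower. Clu (-0.58 ± 0.48, adjusted p = 0.36) and Ly6a (0.19 ± 0.25, adjusted p = 0.582), which mark regenerating epithelium in mouse, missed the threshold. The call count was 12 whichever library was left out, and 3 calls were kept with the B cell covariate (F3 at -1.15, adjusted p = 0.027, Il33 at -1.21, adjusted p = 0.00157 and Ly6d at -1.24, adjusted p = 0.0184). In non-tumour tissue 7 of the 15 genes were called between the genotypes, against 1.42% of all genes tested.

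Matrix proteases and the urokinase system followed, with 8 of 11 tested genes lower and 0 higher. Plaur, the urokinase receptor, had 4.98, 11.1 and 17.2 CPM in ex/ex tumours, against 9.27, 37.1 and 68.7 CPM in wild-type tumours (-1.77 ± 0.26, adjusted p = 3.25e-06). Mmp14, a membrane-bound collagenase, showed -1.57 ± 0.23, adjusted p = 3.12e-06, Mmp10 showed -2.47 ± 0.44, adjusted p = 4.94e-05, and Mmp9, a gelatinase, showed -1.23 ± 0.27, adjusted p = 0.000732. Calls of Timp1 and Mmp9 were kept with the B cell covariate (-1.34, adjusted p = 0.00569 for Mmp9). Of 14 BMP ligands, antagonists and targets, 10 were lower and 0 higher. Bmp4 had 2.06, 6.07 and 10.7 CPM in ex/ex tumours, against 8.16, 16.5 and 24 CPM in wild-type tumours (-1.34 ± 0.22, adjusted p = 1.83e-05), and Bmp7 showed -2.01 ± 0.27, adjusted p = 5.4e-07. The target Id1 showed -1.19 ± 0.24, adjusted p = 0.000231, while the stromal antagonist Grem1 missed the threshold (-0.29 ± 0.31, adjusted p = 0.498). Of these 10 calls 3 were kept with the B cell covariate, among them Bmp4 (-0.88, adjusted p = 0.0255). Imprinted growth genes, known for their part in growth before birth, were lower in 4 of 10 cases, and with the B cell covariate none of these calls was kept and 2 genes were higher. In the fit of tumours alone 2 of 7 tested were lower.

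Genes of the B cell, germinal centre and MHC class II lists were higher in ex/ex tumours where they were called. On the B cell list 4 of 14 genes were higher and 0 lower, on the list of germinal centre and follicle genes 6 of 13 were higher and 0 lower, and on the MHC class II list 7 of 10 were higher and 0 lower. Spib, an ETS factor of B cells and M cells, had 14.2, 298 and 494 CPM in ex/ex tumours, against 6.17, 10.7 and 291 CPM in wild-type tumours (1.95 ± 0.57, adjusted p = 0.00893). Bcl6, the transcription factor of germinal centre B cells, had 27.5, 86.3 and 157 CPM in ex/ex tumours, against 14.8, 17.2 and 102 CPM in wild-type tumours (1.49 ± 0.30, adjusted p = 0.000277). For both genes wild-type tumours 1, 4 and 7 lay within the ex/ex range. Ms4a1, which encodes CD20, had 1.14, 431 and 754 CPM in ex/ex tumours, against 0.532, 1.39 and 454 CPM in wild-type tumours, and missed the threshold (2.11 ± 0.86, adjusted p = 0.0546). Cd74, the invariant chain of MHC class II, had 420.5, 3434 and 4495 CPM in ex/ex tumours, against 402, 762 and 4422 CPM in wild-type tumours (1.09 ± 0.35, adjusted p = 0.0148). The B cell list count was 1 without wild-type tumour 8, 14 without wild-type tumour 4 and 11 without the 3 male ex/ex tumours. It was 9 with DESeq2, 14 with the position covariates and with limma-voom, 2 without a filter on low counts and 1 in the fit of tumours alone. The germinal centre count was 5 without wild-type tumour 2 and 11 without wild-type tumour 4 and with the position covariates, and the MHC class II count 5 without wild-type tumour 3 and 10 without wild-type tumour 4. No call of the 3 lists was kept in the fit with the B cell list mean, which for the B cell list follows from the covariate itself. Genes of the other 2 lists are also expressed in B cells, so their losses are not independent of the covariate. In this fit 3 germinal centre genes and 1 MHC class II gene were lower. Plasma cell genes were higher in 3 of 11 cases and lower in 2, with 0 higher without wild-type tumour 8 and 5 without wild-type tumour 4. None of these 5 calls was kept with the B cell covariate, and 4 plasma cell genes were lower.

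T and NK cell genes showed 0 of 19 higher and 0 lower in the fit of 4 groups. The higher count was 2 with DESeq2, 4 with the position covariates and without the 3 male ex/ex tumours, 5 without wild-type tumour 1 and 17 with limma-voom, whose median log2 fold change was 1.97 against 0.34. Their list mean was 1.40, 4.23 and 4.54 log2 CPM in ex/ex tumours, against 1.41, 2.18 and 5.27 log2 CPM in wild-type tumours. Cd4 had 7.26, 60.1 and 94.6 CPM in ex/ex tumours, against 3.22, 9.03 and 104 CPM in wild-type tumours (1.02 ± 0.44, adjusted p = 0.071), and Cd8a was at -0.11 ± 0.27, adjusted p = 0.791. In the fit with the B cell covariate 12 of these genes were lower, among them Cd3e (-1.01, adjusted p = 0.000766) and Cd8a (-1.01, adjusted p = 0.00333). M cells, which carry antigen across the epithelium over lymphoid follicles, had 5 of 11 genes higher and 4 lower (2 lower without wild-type tumour 8 and with the position covariates). The M cell receptor gene Gp2 had 2.23, 45 and 76.7 CPM in ex/ex tumours, against 0.352, 1.37 and 51.5 CPM in wild-type tumours (2.36 ± 0.65, adjusted p = 0.00543). Ccl20, the chemokine of follicle-associated epithelium, showed 2.62 ± 0.60, adjusted p = 0.00116, and Sox8, an M cell transcription factor, showed 2.33 ± 0.49, adjusted p = 0.000377. Tnfrsf11b, which encodes the RANKL decoy osteoprotegerin, was lower (-2.81 ± 0.37, adjusted p = 3.84e-07), as was Marcksl1 (-1.03 ± 0.22, adjusted p = 0.000517), which alone on this list kept its call with the B cell covariate (-1.12, adjusted p = 0.0308). Spib is on the M cell list and also on the B cell list, whose mean is the covariate.

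Replication and mitosis genes were higher in 11 of 22 cases and lower in 0, with a median log2 fold change of 0.67. The replicative helicase subunit Mcm6 had 41, 153 and 263.7 CPM in ex/ex tumours, against 29.8, 58.6 and 114 CPM in wild-type tumours (1.23 ± 0.26, adjusted p = 0.000492). Mki67, the proliferation marker Ki-67, had 49.7, 287 and 613 CPM in ex/ex tumours, against 81.1, 125 and 353 CPM in wild-type tumours (1.03 ± 0.30, adjusted p = 0.00845). Pcna, the sliding clamp, showed 0.74 ± 0.16, adjusted p = 0.000713. Plk1 (0.19 ± 0.22, adjusted p = 0.527), Cdk1 (-0.11 ± 0.22, adjusted p = 0.715) and Birc5 (0.09 ± 0.17, adjusted p = 0.713) missed the threshold. The count was 16 without ex/ex tumour 1 and 17 without all 3 male ex/ex tumours. No call of this list was kept with the B cell covariate, which put Mki67 at -0.22, adjusted p = 0.638 and Mcm6 at 0.27, adjusted p = 0.545, and with the position covariates 2 were called higher.

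**Figure D4:**
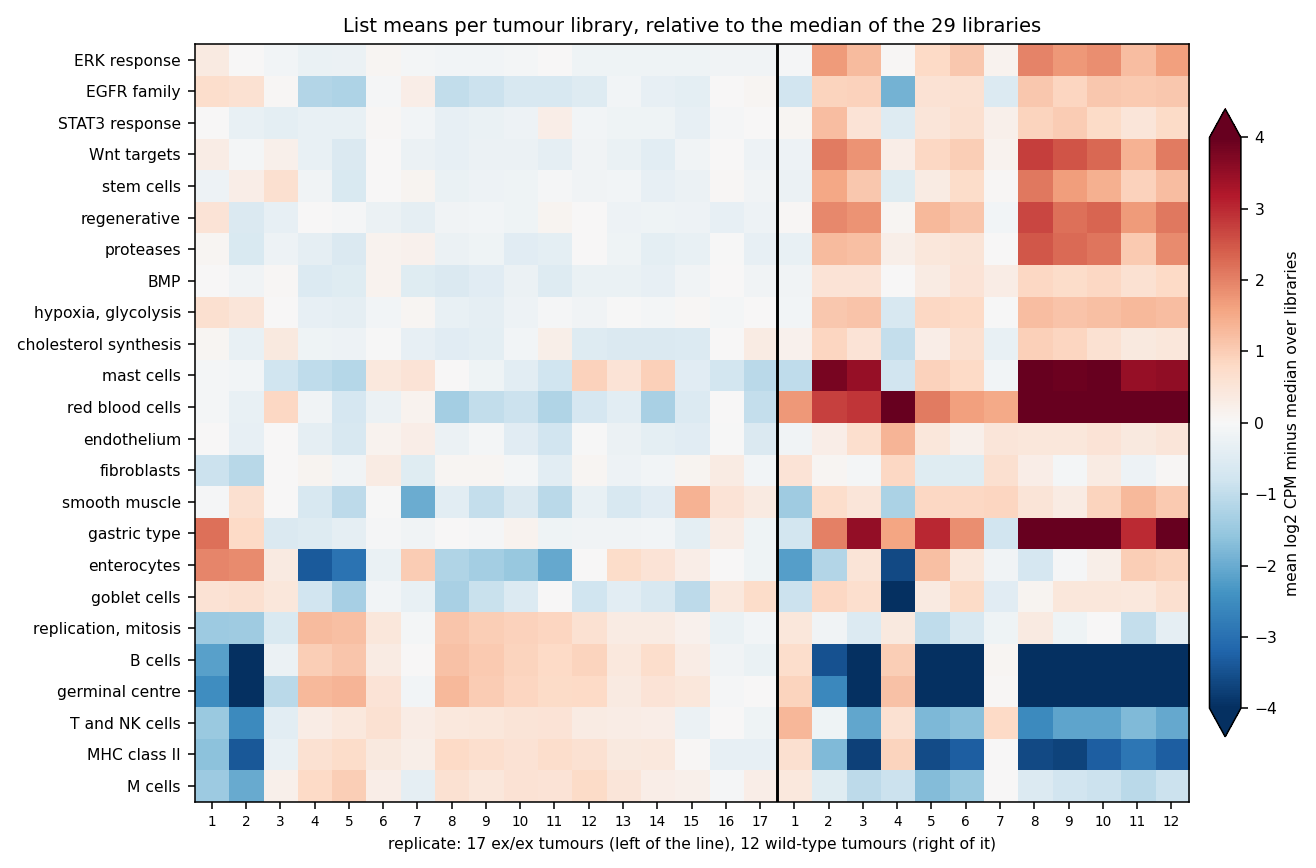
Mean log2 CPM of 24 gene lists in each tumour library, minus the median over the 29 libraries (colour, red higher and blue lower). The 17 ex/ex tumours stand left of the line and the 12 wild-type tumours right of it, each column being a replicate. Wild-type tumours 1, 4 and 7 show high B cell levels and low Wnt target levels, and red blood cell levels are above the median in all 12 wild-type tumours.

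Mast cell genes were lower in 10 of 11 cases, with a median log2 fold change of -4.08, and the count was 10 whichever library was left out. Cpa3, the gene of mast cell carboxypeptidase, had 0, 0.30 and 1.83 CPM in ex/ex tumours, against 0, 16.4 and 32.5 CPM in wild-type tumours (-4.41 ± 0.64, adjusted p = 1.77e-06). Mcpt1, a protease of mucosal mast cells, had 0.33, 7.57 and 47.7 CPM in ex/ex tumours, against 1.48, 298 and 570.5 CPM in wild-type tumours (-4.09 ± 0.75, adjusted p = 7.12e-05). Cma1, a chymase of connective tissue mast cells, showed -5.82 ± 0.76, adjusted p = 3.13e-07, and the tryptase Tpsb2 showed -5.53 ± 0.67, adjusted p = 1.14e-07. Wild-type tumours fell into levels far apart, with list means of 3.70 to 4.42 log2 CPM in 7 of them and -0.775 to 1.17 in the other 5, against -0.903 to 1.18 in ex/ex tumours. The B cell covariate left 3 calls, those of Cma1 (-3.24, adjusted p = 0.0208), Tpsb2 (-2.54, adjusted p = 0.0378) and Gata2 (-1.46, adjusted p = 0.0132). In the fit of tumours alone 5 genes of the list passed the filter on low counts, and these 5 were lower. Cma1 and Tpsb2 did not pass that filter.

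Neutrophil and acute inflammation genes were lower in 8 of 17 cases and higher in 1 (4 higher without wild-type tumour 1). In the fit of tumours alone 8 genes of the list passed the filter on low counts, of which 1 was lower. Cxcl1, Cxcl2, Cxcl5, Ccl2 and S100a9 did not pass that filter. The neutrophil chemokine Cxcl5 had 0, 0.098 and 0.447 CPM in ex/ex tumours, against 0.182, 1.6 and 5.19 CPM in wild-type tumours (-3.70 ± 0.48, adjusted p = 3.01e-07). Ptgs2, the inducible cyclooxygenase COX-2, had 0.797, 1.82 and 3.82 CPM in ex/ex tumours, against 2.0, 9.58 and 27.8 CPM in wild-type tumours (-2.59 ± 0.34, adjusted p = 4.45e-07). Cxcl1 (-3.46 ± 0.51, adjusted p = 2.17e-06), Cxcl2 (-3.89 ± 0.55, adjusted p = 1.4e-06) and the neutrophil protein S100a9 (-3.87 ± 0.66, adjusted p = 2.71e-05) were lower, while Il1b (-0.03 ± 0.28, adjusted p = 0.958) and the neutrophil receptor Cxcr2 (0.03 ± 0.26, adjusted p = 0.977) missed the threshold. Beside Cxcl5 (-2.64, adjusted p = 0.00553), the calls of Cxcl2 and Ccl2 were kept with the B cell covariate. Reg proteins and mucosal defence genes were lower in 6 of 13 cases and higher in 0. Duox2, an oxidase that makes hydrogen peroxide at the epithelial surface, had 13.1, 36.9 and 129 CPM in ex/ex tumours, against 1.72, 226 and 718 CPM in wild-type tumours (-2.39 ± 0.43, adjusted p = 5.39e-05). Its maturation factor Duoxa2 (-3.01 ± 0.48, adjusted p = 9.65e-06) and the acute phase gene Saa3 (-3.29 ± 0.46, adjusted p = 1.09e-06) were lower, and the call of Duox2 was among 3 kept with the B cell covariate (-2.39, adjusted p = 0.0103). Macrophage and dendritic cell genes were called in both directions at about the common rate, with 3 of 17 higher and 3 lower. The higher count was 9 without wild-type tumour 4 and 11 with limma-voom, and with the B cell covariate none of the 6 calls was kept and 4 genes were lower.

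All 5 red blood cell genes tested were lower, and the other 2 on the list did not pass the filter on low counts. The count was 5 with the B cell covariate and whichever library was left out. Hbb-bs, a beta globin gene, had 1.44, 3.37 and 9.01 CPM in ex/ex tumours, against 17.2, 70.3 and 147 CPM in wild-type tumours (-4.23 ± 0.43, adjusted p = 4.24e-09). No ex/ex tumour reached the lowest wild-type tumour for this gene, for Hbb-bt, Hba-a1 or Hba-a2. Alas2, the first enzyme of haem synthesis in red cell precursors, had 0, 0.142 and 0.924 CPM in ex/ex tumours, against 0.909, 6.21 and 11.5 CPM in wild-type tumours (-4.62 ± 0.53, adjusted p = 3.85e-08), and 1 library of each group lay in the range of the other. The list mean was -0.855 to 1.35 log2 CPM in ex/ex tumours, against 2.03 to 5.14 log2 CPM in wild-type tumours. Hbb-bs was at -3.80, adjusted p = 8.01e-07 with the B cell covariate. In the fit of tumours alone 4 genes of the list were tested, and these 4 were lower. Alas2 did not pass the filter on low counts in that fit. In non-tumour tissue the difference between the genotypes was of the same direction (Hbb-bs -4.04, adjusted p = 0.000674), and the test of tumour against non-tumour effects gave -0.20 (adjusted p = 0.931). The near-identical globin copies share reads, so values of single globin genes are uncertain.

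Vessel genes were lower in 9 of 12 cases and higher in 0, and 8 of the 9 calls were kept with the B cell covariate. DESeq2 gave no p for 5 of the 12 genes, Vwf among them, and called 5 of the other 7 lower. Cdh5, the cadherin of endothelial junctions, had 5.55, 11 and 15.2 CPM in ex/ex tumours, against 12.8, 20.9 and 35.4 CPM in wild-type tumours (-1.06 ± 0.22, adjusted p = 0.000358, and -1.18, adjusted p = 0.00617 with the covariate). The VEGF receptor Flt1 (-1.54 ± 0.27, adjusted p = 4.06e-05), the clotting factor carrier Vwf (-1.34 ± 0.25, adjusted p = 9.97e-05) and the lymphatic marker Lyve1 (-0.95 ± 0.18, adjusted p = 0.000101) were lower, while Pecam1 (0.41 ± 0.28, adjusted p = 0.259) and Cldn5 (-0.01 ± 0.22, adjusted p = 0.99) missed the threshold. Fibroblast and matrix genes were lower in 6 of 15 cases. Col1a1, a chain of type I collagen, had 24, 36.8 and 55.7 CPM in ex/ex tumours, against 51.3, 94.7 and 176 CPM in wild-type tumours (-1.43 ± 0.22, adjusted p = 4.3e-06). Its call and that of Pdgfrb, a receptor of fibroblasts and pericytes (-0.91 ± 0.18, adjusted p = 0.000202), were among 4 kept with the B cell covariate (-1.11, adjusted p = 0.0099 and -0.89, adjusted p = 0.00766), which put 10 genes of the list lower. Smooth muscle genes were lower in 6 of 11 cases, a count of 2 without wild-type tumour 11, of 10 without ex/ex tumour 15, of 3 without a filter on low counts and of 0 with the B cell covariate and with the position covariates, and Smtn, the gene of smoothelin, was lower (-0.83 ± 0.20, adjusted p = 0.00188). Of 12 enteric neuron and glia genes 4 were lower, among them Ret (-1.18 ± 0.20, adjusted p = 2.76e-05) and the neuropeptide Vip (-1.93 ± 0.41, adjusted p = 0.000413). None of these 4 calls was kept with the B cell covariate, in which Ret was at -0.70, adjusted p = 0.0605 and Vip at -0.39, adjusted p = 0.519, and 1 was kept with the position covariates.

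Few lineage genes of the normal epithelium were called. Of 23 enterocyte genes 1 was higher, Cyp3a11, an enzyme that breaks down drugs and bile acids, with 7.66, 227 and 1055 CPM in ex/ex tumours, against 14.1, 103 and 248.8 CPM in wild-type tumours (1.54 ± 0.52, adjusted p = 0.0218). Without the 3 male ex/ex tumours it was at 0.87 with an adjusted p of 0.125. No gene was called among 16 of enteroendocrine cells or 9 of distal intestine. Muc2, the goblet cell mucin, was at 0.13 ± 0.36, adjusted p = 0.81, and Retnlb, an antibacterial goblet cell protein, was the 1 lower of 11 goblet cell genes, of which 3 were lower without wild-type tumour 4 (-5.60 ± 0.78, adjusted p = 9.69e-07, and -3.13, adjusted p = 0.0114 with the B cell covariate). Of 12 Paneth cell genes 2 were lower, the phospholipase gene Pla2g2a, which is annotated as a polymorphic pseudogene (-4.04 ± 0.49, adjusted p = 1.15e-07), and the protease Mmp7 (-1.94 ± 0.42, adjusted p = 0.000577). The share of lower genes on this list lay near that of all genes. Of 12 tuft cell genes 3 were lower, led by Avil (-2.30 ± 0.34, adjusted p = 2.49e-06). With the B cell covariate no Paneth or tuft cell call was kept, with Pla2g2a at -1.05, adjusted p = 0.146, Mmp7 at 0.16, adjusted p = 0.881 and Avil at -0.37, adjusted p = 0.513. In that fit 12 enterocyte, 5 enteroendocrine, 2 distal and 1 goblet cell gene were called higher. The position covariates gave 7 higher goblet cell and 5 higher enterocyte genes, and limma-voom 8 lower enterocyte and 9 lower enteroendocrine genes. Retnlb did not pass the filter on low counts in the fit of tumours alone.

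Gastric-type genes were lower in 8 of 10 cases and higher in 0, with a median log2 fold change of -4.58. DESeq2 gave no p for 5 of the 10, Muc6 and Gkn3 among them, and called 4 of the other 5 lower. Muc6, the mucin of gastric glands, had 0.0867, 0.392 and 4.14 CPM in ex/ex tumours, against 0, 27.3 and 262.4 CPM in wild-type tumours (-6.86 ± 1.20, adjusted p = 3.56e-05). The water channel Aqp5 had 0, 0 and 0.319 CPM in ex/ex tumours, against 0, 6.02 and 63.6 CPM in wild-type tumours (-8.95 ± 1.30, adjusted p = 2.08e-06). Tff1, the trefoil factor of the stomach, showed -7.26 ± 1.12, adjusted p = 5.48e-06, and Gkn3, a gastrokine, showed -5.54 ± 1.05, adjusted p = 0.000113. Wild-type tumours spread widely, with list means of -1.92 to 4.14 log2 CPM against -1.72 to 1.05 in ex/ex tumours. Aqp5 alone kept its call with the B cell covariate (-5.50, adjusted p = 0.0356), and 1 other gene of the list was then higher. With the position covariates 6 genes of the list were lower. In the fit of tumours alone 4 genes of the list passed the filter on low counts, and these 4 were lower. Aqp5 and Tff1 did not pass that filter. A non-tumour library stood apart: in ex/ex non-tumour replicate 4 the gastric-type genes summed to 70660 CPM, against 8.54 to 55.7 CPM in the other 5 ex/ex non-tumour libraries. Without it the tumour count was 8 of 10 as well. Pdx1, the transcription factor of duodenum and pancreas, had 0, 0.0964 and 0.637 CPM in ex/ex tumours, against 0.0909, 2.76 and 5.75 CPM in wild-type tumours (-3.94 ± 0.78, adjusted p = 0.000184), and was 1 of 3 lower genes among 9 of proximal intestine. The B cell covariate kept none of these 3 calls, Pdx1 was at -1.64, adjusted p = 0.326, and 3 proximal genes were higher. Pdx1 did not pass the filter on low counts in the fit of tumours alone. Ctse, the gene of cathepsin E, a protease of stomach and other mucosae, had 4.5, 10.3 and 51.2 CPM in ex/ex tumours, against 52.1, 138 and 584 CPM in wild-type tumours (-3.71 ± 0.56, adjusted p = 3.25e-06), with no overlap of the groups and -2.71, adjusted p = 0.00554 with the B cell covariate.

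Genes of cholesterol synthesis and their regulator SREBP2 were lower in 15 of 19 cases and higher in 0, with a median log2 fold change of -0.59. Mvk, the gene of mevalonate kinase, had 8.82, 12.6 and 18 CPM in ex/ex tumours, against 9.91, 22.7 and 31.6 CPM in wild-type tumours (-0.86 ± 0.14, adjusted p = 7.73e-06). Fdft1, the gene of squalene synthase, had 30.7, 45 and 82.7 CPM in ex/ex tumours, against 29.6, 112 and 168 CPM in wild-type tumours (-1.12 ± 0.20, adjusted p = 4.82e-05). Sqle (-0.80 ± 0.20, adjusted p = 0.00234) and Hmgcs1 (-0.58 ± 0.17, adjusted p = 0.0101) were lower, while Srebf2 (0.07 ± 0.14, adjusted p = 0.743) missed the threshold. None of the 15 calls was kept with the B cell covariate, in which Mvk was at -0.44, adjusted p = 0.0741 and 2 genes of the list were higher. Promoters were matched for 9 of the 15 genes. The sterol response letters CACCCCAC stood in 1 of these 9, against 3.3% of all genes with a promoter. CCAAT, the letters bound by NF-Y and chosen after the sequences were seen, stood in 9 of 9, against 41.1%. The promoters of Hmgcs1 (chr13:119690101-119690400, plus strand), which held both motifs, and of Mvk (chr5:114444019-114444318, plus strand) are shown, with CCAAT on either strand and the sterol response letters in capitals.
Hmgcs1: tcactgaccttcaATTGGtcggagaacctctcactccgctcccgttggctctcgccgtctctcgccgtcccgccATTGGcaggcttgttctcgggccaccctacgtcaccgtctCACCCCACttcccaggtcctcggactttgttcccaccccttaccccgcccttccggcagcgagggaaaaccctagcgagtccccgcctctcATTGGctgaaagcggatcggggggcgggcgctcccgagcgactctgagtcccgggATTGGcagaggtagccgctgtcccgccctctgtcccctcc
Mvk: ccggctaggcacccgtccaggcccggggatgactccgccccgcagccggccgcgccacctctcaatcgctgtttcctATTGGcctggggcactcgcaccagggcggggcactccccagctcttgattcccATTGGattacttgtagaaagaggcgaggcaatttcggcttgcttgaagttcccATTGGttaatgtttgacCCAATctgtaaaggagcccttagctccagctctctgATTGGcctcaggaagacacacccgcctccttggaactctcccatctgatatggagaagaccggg

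Hypoxia and glycolysis genes were lower in 10 of 14 cases and higher in 0. Slc2a1, the glucose transporter GLUT1, had 10.5, 22.1 and 31 CPM in ex/ex tumours, against 24.3, 68.8 and 119.7 CPM in wild-type tumours (-1.55 ± 0.22, adjusted p = 1.12e-06). Hexokinase 2, encoded by Hk2, showed -1.29 ± 0.21, adjusted p = 9.71e-06, and Aldoa (-0.92 ± 0.15, adjusted p = 9.56e-06), Pgk1 (-1.0 ± 0.19, adjusted p = 0.000121) and Car9 (-1.39 ± 0.33, adjusted p = 0.00134) were lower. Vegfa (-0.30 ± 0.26, adjusted p = 0.381) and Ldha (-0.45 ± 0.22, adjusted p = 0.109) missed the threshold. Calls of Slc2a1 (-1.16, adjusted p = 0.0155), Hk2 (-1.24, adjusted p = 0.00437) and Pdk1 (-0.56, adjusted p = 0.000452) were kept with the B cell covariate. In that fit 2 genes of the list were higher, Vegfa (0.83, adjusted p = 0.0221) and Ldha (0.55, adjusted p = 0.0371).

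Cyp1a1, the classical target of the aryl hydrocarbon receptor, had 2.71, 6.2 and 16.7 CPM in ex/ex tumours, against 0.0895, 0.266 and 2.08 CPM in wild-type tumours (3.83 ± 0.42, adjusted p = 2.15e-08). Every ex/ex tumour lay above every wild-type tumour, and the B cell covariate left 3.09, adjusted p = 1.95e-05. Of the 6 genes of the receptor and its targets, 1 was higher and 1 lower. The lower one was Nqo1, a quinone reductase (-0.74 ± 0.25, adjusted p = 0.0229), whose call ended with the B cell covariate (-0.05, adjusted p = 0.929), with the position covariates and without wild-type tumour 2. Ahrr (0.13 ± 0.23, adjusted p = 0.688) and Cyp1b1 (-0.12 ± 0.29, adjusted p = 0.773) missed the threshold. Nr0b2, the nuclear receptor SHP that bile acids induce, had 0.695, 3.66 and 10.2 CPM in ex/ex tumours, against 0.0909, 0.378 and 1.22 CPM in wild-type tumours (3.25 ± 0.43, adjusted p = 4.29e-07). PPAR-alpha targets were called in both directions, with 3 of 14 higher and 3 lower. Pdk4, which spares glucose by blocking pyruvate dehydrogenase, had 2.06, 88.8 and 279 CPM in ex/ex tumours, against 5.03, 22 and 60.8 CPM in wild-type tumours (2.13 ± 0.53, adjusted p = 0.00226), Angptl4 showed 2.02 ± 0.44, adjusted p = 0.000633 and Acaa1b showed 1.84 ± 0.47, adjusted p = 0.00314. Acot1, a thioesterase, was lower (-2.15 ± 0.30, adjusted p = 8.69e-07). With the B cell covariate 9 of the 14 were higher and 1 lower, and 4 of the 6 calls were kept. Without the 3 male ex/ex tumours 6 were lower. Of 15 clock genes 2 were higher and 4 lower (7 lower without ex/ex tumour 2), the higher ones being Arntl, the gene of BMAL1 (0.64 ± 0.12, adjusted p = 0.000129), and Per1 (0.82 ± 0.17, adjusted p = 0.000263). The B cell covariate kept these 2 calls and none of the lower ones, and 6 clock genes were then higher. Interferon response genes were higher in 2 of 16 cases and lower in 0 (0 without wild-type tumour 3 and 3 without wild-type tumour 4), and Ifit1 was at -0.07 ± 0.31, adjusted p = 0.881. With the B cell covariate 1 was higher and 2 lower, and with limma-voom 8 were higher. Immediate early and heat shock genes were lower in 4 of 15 cases and higher in 1, with 8 lower without ex/ex tumour 2. The B cell covariate kept none of these 5 calls and gave 3 higher genes. The shares of called PPAR-alpha, clock and immediate early genes lay near that of all genes, and the share of called interferon genes lay below it.

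**Figure D5:**
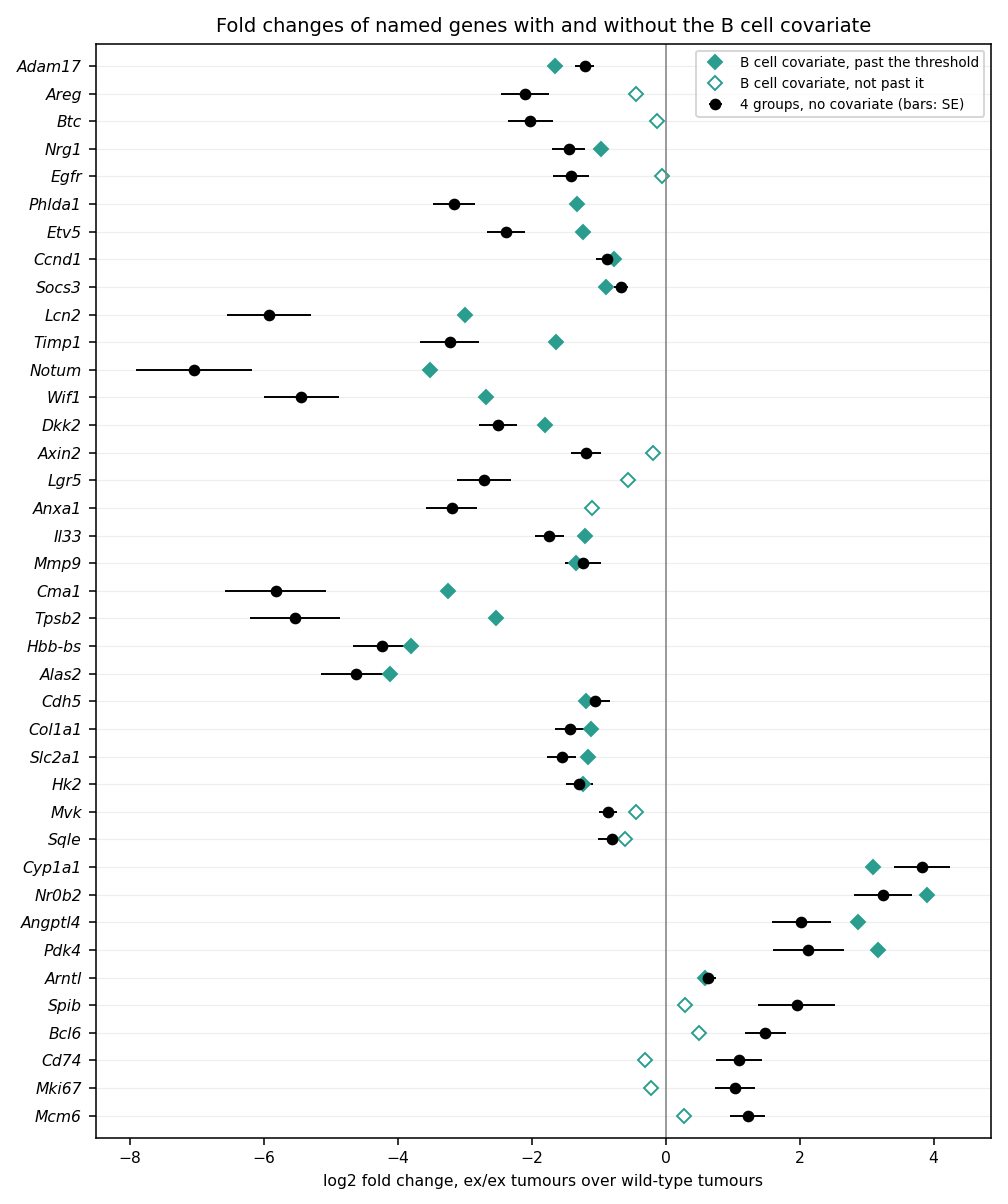
Log2 fold change of 39 genes, ex/ex over wild-type tumours (horizontal axis). Black points with bars are the values and SE of the fit of 4 groups, and diamonds are the values with the B cell covariate, filled where the adjusted p was below 0.05. Diamonds of Egfr, Axin2 and Mki67 lie near 0, whereas those of Adam17, the globin and vessel genes and Cyp1a1 lie near the black points.

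Among genes with a mean level of at least 1 log2 CPM, those lowest in ex/ex tumours included secreted proteins. Wfdc18, a whey acidic protein family member, had 0, 0.115 and 0.637 CPM in ex/ex tumours, against 0.347, 46.6 and 728 CPM in wild-type tumours (-10.35 ± 1.29, adjusted p = 1.55e-07). Slc38a4, an amino acid transporter, had 0, 0.346 and 1.99 CPM in ex/ex tumours, against 0.0868, 61.6 and 514 CPM in wild-type tumours (-8.34 ± 0.84, adjusted p = 3.74e-09). Alb, the gene of albumin (-8.78 ± 0.99, adjusted p = 2.73e-08), Bpifb5 (-7.69 ± 1.0, adjusted p = 3.38e-07) and Bpifb1 (-6.49 ± 0.80, adjusted p = 1.45e-07) were lower too. Each of these 5 calls was kept with the B cell covariate. In the fit of tumours alone Bpifb5 was at -7.64, adjusted p = 9.23e-06. Wfdc18, Slc38a4, Alb and Bpifb1 did not pass the filter on low counts in that fit. Of the higher genes, Eif2s3y and Ddx3y are Y-linked and were high in the 3 male ex/ex tumours alone. Map3k19, a kinase gene, had 0, 5.97 and 9.89 CPM in ex/ex tumours, against 0, 0.11 and 0.182 CPM in wild-type tumours (5.50 ± 0.75, adjusted p = 6.38e-07), with 3.64, adjusted p = 0.00795 in the fit with the B cell covariate. Clec4e, a receptor of myeloid cells (2.86 ± 0.52, adjusted p = 6.42e-05), and Fcamr, a receptor for IgM and IgA (2.65 ± 0.77, adjusted p = 0.00814), were higher too.

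In 47 genes (0.288% of those tested) the ex/ex and wild-type tumours did not overlap, 17 with ex/ex above (0.104%) and 30 with ex/ex below (0.184%). All 47 were also called, and 26 of them were called in non-tumour tissue as well. The set held 9 pseudogenes, such as Gm6472, which had 30.4, 61.6 and 90.0 CPM in ex/ex tumours, against 0, 0.0545 and 0.281 CPM in wild-type tumours. Reads that align to several places were not counted, so values of such copies are uncertain. Tsc22d3, the glucocorticoid-induced gene GILZ, had 136, 195 and 370.0 CPM in ex/ex tumours, against 52.7, 80.4 and 131 CPM in wild-type tumours (1.30 ± 0.18, adjusted p = 1.03e-06). Retreg1, a receptor for the degradation of endoplasmic reticulum, showed 0.89 ± 0.14, adjusted p = 8.91e-06, and Taf5, a subunit of the general transcription factor TFIID, showed 0.62 ± 0.08, adjusted p = 1.34e-07. Below the wild-type range stood Igfbp4, a binding protein of insulin-like growth factors, with 19, 34.7 and 51 CPM in ex/ex tumours, against 56, 104 and 361 CPM in wild-type tumours (-2.07 ± 0.25, adjusted p = 7.58e-08). Chd9, a chromatin remodeller, had 32.2, 65.7 and 129.7 CPM in ex/ex tumours, against 167, 444 and 511 CPM in wild-type tumours (-2.35 ± 0.33, adjusted p = 1.09e-06). Plod3, a collagen-modifying enzyme (-1.11 ± 0.12, adjusted p = 1.72e-08), and the protease genes Capn11 (-5.37 ± 0.38, adjusted p = 2.82e-13) and Prss41 (-3.41 ± 0.26, adjusted p = 2.8e-12) were below as well. The calls of all these protein-coding genes were kept with the B cell covariate.

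In non-tumour tissue 1.42% of the genes tested were called between the genotypes with 6 and 4 libraries, and 176 of these were also called in tumours, 173 in the same direction. The difference between the tumour and the non-tumour effect was called for 33 genes (0.202%), of which 21 were called in tumours, and 2279 genes had an unadjusted p below 0.05. The count of 33 was 6 without wild-type non-tumour replicate 1, a library of 438639 gene counts, and 10 without ex/ex non-tumour replicate 4, the library rich in gastric-type transcripts. Of the 9 genes named in the text that had such a call, 1 kept it in either case, Msln. Msln, the gene of mesothelin, fell by less in tumours (-0.96 ± 0.30) than in non-tumour tissue (-5.10, difference 4.14, adjusted p = 0.0201, and 0.0571 without wild-type non-tumour replicate 4). Lrig1 was lower in tumours (-0.68 ± 0.15) and at 0.70 in non-tumour tissue (difference -1.38, adjusted p = 0.0426, and 0.147 without ex/ex non-tumour replicate 4). Areg gave a difference of -1.74 (adjusted p = 0.321), Notum of -4.38 (adjusted p = 0.257) and Adam17 of 0.88 (adjusted p = 0.189), none of which passed the threshold.

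The groups differed in spread as well as in level. The median SD of log2 CPM over all genes was 0.467 in ex/ex tumours and 0.505 in wild-type tumours. Wild-type tumours had the larger SD in 74.7% of called genes, against 64.5% of all genes tested. The Wnt target list mean had an SD of 0.22 in ex/ex tumours and 0.995 in wild-type tumours, and the ERK response list mean one of 0.145 and 0.736. For the replication list the order was the other way, with 0.837 in ex/ex tumours and 0.5 in wild-type tumours.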

How the data were processed

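Total RNA of intestinal tumours and of non-tumour tissue was sequenced as stranded poly(A) libraries, per the labels' protocols. Reads were trimmed with Trimmomatic 0.36, aligned to GRCm38 with TopHat2 2.0.14 and counted with HTSeq, per the submitters' processing notes, and the authors deposited a whole-number count per gene for each library. For HTSeq, neither the version nor the strand setting is given in the sources used here. HTSeq's rows of uncounted reads stayed out of library sizes: 29.2 to 33.2% of the total in ex/ex tumours and 29.7 to 37.6% in wild-type tumours were alignments that were not unique, so genes with near-identical copies are undercounted. Of 49585 gene IDs, 49326 matched the GENCODE M21 annotation that gave the symbols, and the other 259 took 0.0851% of the counts.

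From the deposited counts, CPM were computed with TMM library sizes, and all 39 libraries were fitted in 4 groups of genotype by tissue with edgeR 4.0.16 in R 4.3.3 (glmQLFit and glmQLFTest after filterByExpr), with Benjamini-Hochberg adjustment over 16327 genes and a threshold of 0.05. Contrasts are ex/ex minus wild type in tumours, the same in non-tumour tissue, and the difference between these. List means use log2 CPM with a prior count of 2. The SE of a fold change is on the log2 scale. The procedure was tested on simulated data with independent libraries and no difference in B cell level between libraries of a group. The simulation therefore does not test how such differences, or tumours sharing an animal, bear on the calls. No pair of libraries in a group agreed within sampling noise (lowest chi-square per degree of freedom 5.02 in ex/ex and 9.36 in wild-type tumours). Alternatives were another normalization, other filters, tumours alone, covariates, limma-voom (limma 3.58.1) with quality weights, DESeq2 1.42.0, and leaving libraries out.

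The genes named are Adam17 and Apc, members of 44 lists, genes whose groups do not overlap, and, among called genes, the 20 largest changes each way at a mean of at least 1 log2 CPM and the 12 smallest p-values each way, without antigen receptor segments and systematic names; of these, the text gives a selection. The pseudogene Gm6472 was named after its values were seen. The comparison, the lists and the alternatives were chosen with earlier results of these data known. No list was given a test of its own. Values of some single list members are not reported here.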

Additional observations from a re-analysis of the deposited data

Results flagged for a closer look

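The genotype effect (ex/ex minus wild type, log2) differed between tumour and non-tumour tissue for 9 of the genes named above, by the test of the difference itself (edgeR's quasi-likelihood test, adjusted p below 0.05). For Slc38a4 the tumour effect minus the non-tumour effect was -8.57 (adjusted p = 0.033), and for Wfdc18 it was -12.63 (adjusted p = 0.0382). Of the gastric-type genes, Aqp5 gave -11.56 (adjusted p = 0.0422), Muc6 -13.51 (adjusted p = 0.0426) and Gkn3 -12.11 (adjusted p = 0.0445), and the duodenal factor Pdx1 gave -7.54 (adjusted p = 0.0327). These 6 genes were lower in ex/ex tumours, and none of them was called between the genotypes in non-tumour tissue, where the log2 fold changes of Muc6, Gkn3, Aqp5 and Wfdc18 were 6.65, 6.57, 2.61 and 2.28. These 4 values rest on ex/ex non-tumour replicate 4, whose gastric-type genes summed to 70660 CPM, against 8.54 to 55.7 CPM in the other 5 ex/ex non-tumour libraries. Without it the non-tumour log2 fold changes were -2.03 for Muc6, -1.33 for Gkn3, -6.29 for Aqp5 and -6.62 for Wfdc18, and the differences between the tissues were -4.84, -4.24, -2.66 and -3.73 with adjusted p values of 0.34, 0.352, 0.665 and 0.757. Pdx1 and Slc38a4 then gave -6.79 (adjusted p = 0.0871) and -7.87 (adjusted p = 0.0906). Lrig1 gave -1.38 (adjusted p = 0.0426). Socs3 gave 1.06 (adjusted p = 0.0243) and Msln 4.14 (adjusted p = 0.0201), and both were lower in ex/ex samples of either tissue, by less in tumours. The non-tumour effect rests on 6 ex/ex and 4 wild-type libraries, and over all genes the 33 calls of this kind became 10 without ex/ex non-tumour replicate 4, an alternative chosen after its values were seen, and 6 without wild-type non-tumour replicate 1, which held 438639 gene counts and 21.1% mitochondrial counts. Of these 9 genes, 1 kept its call in each of the 2 cases, Msln, whose adjusted p was 0.0571 without wild-type non-tumour replicate 4.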

How the results depend on the processing

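Of 152 named or plotted genes called in the fit of 4 groups, 75 were called in the same direction with the B cell covariate, 140 with the proximal and distal intestinal covariates, 147 with limma-voom, 148 with DESeq2, 149 without a filter on low counts and without ex/ex tumours 1 to 3, and 150 with DESeq2 size factors. DESeq2 ended none of these calls and gave no adjusted p for Chd9, Gkn3, Muc6 and Vwf. In the fit of tumours alone 132 of the 152 genes passed the filter on low counts, and 130 kept their calls. limma-voom ended those of Acaa1b, Cyp3a11, Pdk4, Ddx3y and Eif2s3y, and the position covariates those of Apc, Car9, Ereg, Mcpt1, Mki67, Mmp7, Msln, Nqo1, Reg3b, Smtn, Sp5 and Vip. With the B cell covariate 8 of them reversed in sign without a call: Apc (0.0868), Car9 (0.38), Cd74 (-0.32), Id1 (0.0061), Mki67 (-0.22), Mmp7 (0.16), Msln (0.29) and Sp5 (0.85). The cause was not tested. Over all genes that covariate gave 3592 calls, 1446 of them lower, and 175 calls of list members; the position covariates gave 1808 lower calls. Without ex/ex tumours 1 to 3 there were 8301 calls, 3894 of them higher. limma-voom with quality weights gave 11850 calls, 5503 higher and 6347 lower, and 450 of list members. Its weights were 0.169, 0.0849 and 0.328 for wild-type tumours 1, 4 and 7 and 0.19 and 0.137 for ex/ex tumours 1 and 2. When each tumour library was left out in turn, all calls ranged from 4396 to 7464, higher ones from 1907 to 4043 and lower ones from 2489 to 3421. The 33 calls for the difference between the tissues were 15 without a filter, 19 with at least 1 CPM in 12 libraries, 14 with the position covariates, 90 without ex/ex tumours 1 to 3, 8459 with limma-voom, 133 with DESeq2, 6 and 52 without wild-type non-tumour replicates 1 and 4, and 10 without ex/ex non-tumour replicate 4, which was chosen after seeing the data. The cause of these shifts was not tested. No paired analysis was possible because the labels give no replicate numbers or animals, so the numbers only name the samples in accession order. Depth limits genes of low level most.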
